A study of Mus musculus with 4 samples.

Results

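A set of 10 genes of cell fate choice in the intestinal crypt was described, namely the Notch receptor Notch1, its ligands Dll1, Dll4 and Jag1, the Notch target Hes1 and the secretory lineage factors Atoh1, Gfi1, Spdef, Neurog3 and Neurod1. They were chosen by name, and every probe set annotated to one of them alone was taken, which gave 16 probe sets for 10 genes out of 45037 probe sets and 18193 genes on the array. The values came from 4 one-colour Affymetrix arrays hybridised with RNA of small intestinal epithelial cells, isolated with 30 mM EDTA from healthy adult C57BL/6J mice that were 10 weeks old and kept specific pathogen-free. The labels assigned 2 arrays to AP-1B+/- mice, called heterozygous 1 and 2 here, and 2 to AP-1B-/- mice, called knockout 1 and 2. AP-1B is the epithelial clathrin adaptor that sorts proteins to the basolateral membrane, and Ap1m2 encodes its mu1B subunit. The heterozygous controls also carry a mutant copy of the gene, no wild-type array was analysed here, and the labels do not state which part of the gene was removed. Separate animals behind the arrays are not stated either, and p-values therefore cover the variation among these samples alone, some of which may be technical.

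In Notch signalling, a Delta or Jagged ligand on one cell triggers cleavage of the Notch receptor on its neighbour, and the freed receptor fragment enters the nucleus and, with the DNA-binding protein Rbpj, switches on repressors such as Hes1. In the intestine, Hes1 holds down Atoh1, so that cells with active Notch become absorptive enterocytes, while cells that escape it express Atoh1 and Delta ligands and become secretory. Downstream of Atoh1, Gfi1 and Spdef steer cells toward the goblet and Paneth fates, and Neurog3 followed by Neurod1 toward the enteroendocrine fate.

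The arrays did not follow their labels in the targeted gene. In multiples of the array median, the single Ap1m2 probe set (1460190_at) read 19.9 and 4.33 on the arrays heterozygous 1 and 2 and 2.49 and 22.2 on the arrays knockout 1 and 2, so that the signal of heterozygous 2 and of knockout 2 went against the label. A probe set outside the removed part would not check it. Both arrays numbered 1 had male and both numbered 2 had female transcripts (Xist at 0.349, 30.3, 0.07 and 60.1 and Eif2s3y at 12.1, 0.256, 24.1 and 0.051 in the order given), which put 1 array of each sex under each label. The 75th percentile of all values was 4.13 and 4.27 on heterozygous 1 and knockout 2 but 5.54 and 5.57 on heterozygous 2 and knockout 1, so that bright probe sets tended to be higher on the latter pair. The labelled cell type was borne out on all 4 arrays by the enterocyte fatty acid-binding protein gene Fabp1, at 707, 770, 910 and 582. Values below are given in the fixed order heterozygous 1, heterozygous 2, knockout 1, knockout 2, first by label and then by Ap1m2 signal, and the latter is a description without a test, since the arrays were placed by a measured value.

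Promoter sequence was matched for 9 of the 10 genes in RefSeq (GRCm38.p6), all but Hes1, and 250 bases before the annotated start were read. The sequences shown are those of Spdef, Jag1 and Neurog3, because their brightest probe sets stood, at 1.29, 1.55 and 1.61 times the next array, highest on knockout 1, the array on which Hes1 was also highest. In Spdef the capitals mark TGGGAA, the core recognised by Rbpj, and in the other genes they mark CANNTG, the E box bound by basic helix-loop-helix factors such as Atoh1 and Neurog3.
Spdef (chr17:27728952-27729201, minus strand): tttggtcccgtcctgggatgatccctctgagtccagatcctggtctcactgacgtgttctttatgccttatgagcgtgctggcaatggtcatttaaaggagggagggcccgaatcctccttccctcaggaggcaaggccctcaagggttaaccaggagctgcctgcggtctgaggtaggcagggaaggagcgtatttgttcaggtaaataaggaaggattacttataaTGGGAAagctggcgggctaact
Jag1 (chr2:137116521-137116770, minus strand): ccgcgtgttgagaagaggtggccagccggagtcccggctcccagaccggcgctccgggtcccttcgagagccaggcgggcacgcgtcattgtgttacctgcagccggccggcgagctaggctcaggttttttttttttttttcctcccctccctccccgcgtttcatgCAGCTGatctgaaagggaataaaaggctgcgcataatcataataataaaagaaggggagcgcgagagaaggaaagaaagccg
Neurog3 (chr10:62132840-62133089, plus strand): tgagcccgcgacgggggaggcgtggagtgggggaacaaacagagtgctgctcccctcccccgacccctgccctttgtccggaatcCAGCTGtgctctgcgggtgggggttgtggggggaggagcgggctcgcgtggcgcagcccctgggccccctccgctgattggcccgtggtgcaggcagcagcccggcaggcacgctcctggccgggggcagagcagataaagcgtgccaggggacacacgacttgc
The TGGGAA match in Spdef began 22 bases before the start, and the E boxes of Jag1 and Neurog3 began 82 and 165 bases before it. Both strands were searched, and an E box reads as an E box on either strand. TGGGAA was found in the promoter of 1 of the 9 genes, beside 21.6% of all 32851 promoters of the table, and CANNTG in 5 of the 9 (Dll1, Gfi1, Jag1, Neurod1 and Neurog3), beside 66.2%. The N box CACNAG, to which Hes proteins bind, was found in 2 of the 9 (Dll4 and Notch1), beside 36.7%, and it could overlap an E box. A gene was counted if any of its promoters matched, and Dll1 and Gfi1 had more than 1. The percentages are per promoter, so the measures are not the same. Each match is a description of these letters in this window and not a site.

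Between the labelled groups, none of these genes passed the test. Of all 22519 probe sets kept by a filter on mean signal, 0 passed an adjusted p of 0.05 (0%, limma with Benjamini-Hochberg adjustment), and 170 had an unadjusted p under 0.05, none of them a probe set of these 10 genes. The 170 are a smaller share of the kept probe sets than the threshold of 0.05 itself. All 14 kept probe sets of the 10 genes had an adjusted p of 0.999907 by limma, which is no evidence of equal levels. The dimmest of Jag1 (1421106_at) and of Neurog3 (1422312_a_at) did not pass the filter. With the brightest probe set standing for each gene, 7 of 10 had a higher and 3 a lower mean on the knockout label, with a median log2 difference of 0.14 beside 0.0054 over all probe sets kept. That median was −0.10 without knockout 1. In bulk samples such as these, fewer cells of a type and less RNA per cell cannot be told apart. Differences are on the scale log2(signal + 0.32), knockout minus heterozygous, which understates those of dim probe sets.

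**Figure D1:**
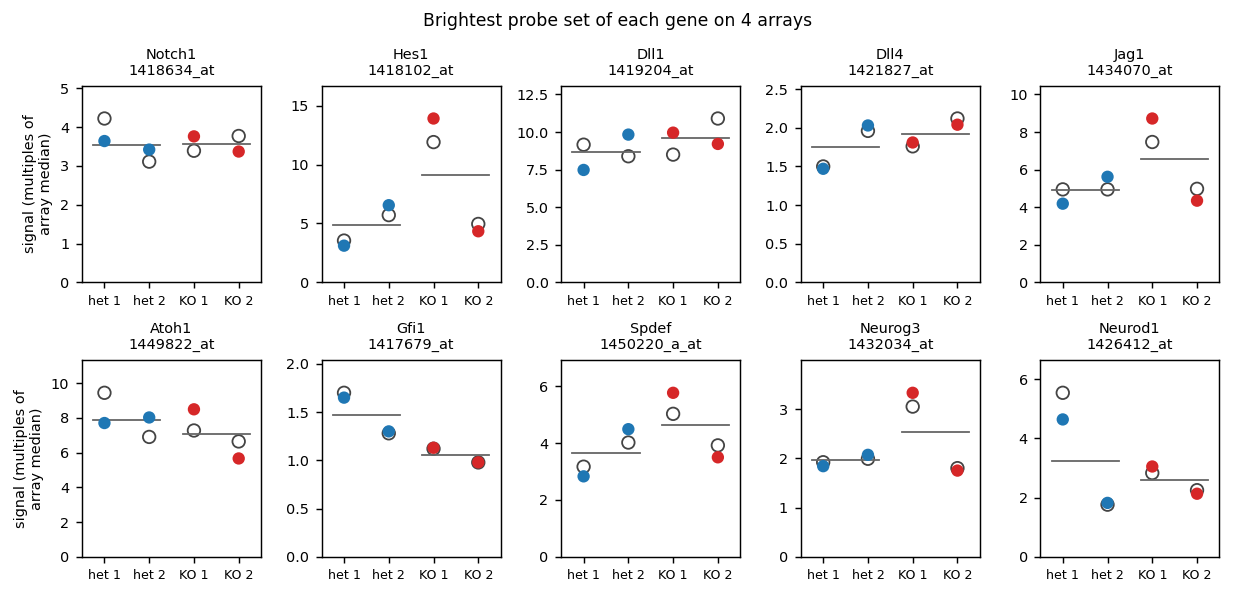
Signal of the brightest probe set of each of the 10 genes on 4 arrays, in multiples of the array median on linear axes from 0. Filled points are deposited values (blue heterozygous, red knockout, by label), lines are label means of them, and open circles are quantile-normalized values; Hes1 runs from 3.12 to 13.9, while the deposited Notch1 values lie between 3.37 and 3.76.

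The receptor Notch1 differed little between arrays in one of its probe sets on the deposited values. Its brighter probe set (1418634_at) had signals of 3.64, 3.42, 3.76 and 3.37, a span of 1.11-fold, and 99.5% of kept probe sets spanned more. This depended on the scaling, since 81.1% spanned more after quantile normalization, where Dll1 had a smaller log2 range (0.37 against 0.40), and 75.9% with centring on the 75th percentile (0.26 against 0.48). The labelled difference was 0.01 with a standard error of 0.43. The second Notch1 probe set (1418633_at) had 2.56, 3.58, 2.27 and 2.16, a span of 1.66-fold. Both knockout arrays lay below both heterozygous ones there, at 2.21 ± 0.0785 against 3.07 ± 0.719 (SD, n = 2 each), a log2 difference of −0.41 ± 0.43 (SE). The labelled groups thus overlapped in the brighter probe set of this receptor and not in the other, and neither difference exceeded its standard error.

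Dll1, the Delta ligand that secretory precursors present to their neighbours, had 7.48, 9.83, 9.96 and 9.21 (1419204_at). It was lowest on heterozygous 1, and the other arrays lay within a narrow band. Its labelled difference was 0.15 with a standard error of 0.51, and −0.04 without heterozygous 1. Dll4, the Delta ligand that acts beside Dll1 in crypts and is also made by endothelial cells, had 1.47, 2.03, 1.81 and 2.04 in its brighter probe set (1421827_at) and 1.39, 2.45, 1.48 and 1.36 in the other (1421826_at). The label means of these were 1.75 ± 0.398 and 1.92 ± 0.163 in the first, and 1.92 ± 0.75 and 1.42 ± 0.0827 in the second (SD, n = 2 each). Their labelled differences had opposite signs, 0.13 and −0.33, with standard errors of 0.43 and 0.45.

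Jag1, a ligand of the Jagged type, had 4.19, 5.62, 8.72 and 4.35 in its brightest probe set (1434070_at). Knockout 1 was highest, at 1.55 times the next array, while knockout 2 lay between the heterozygous arrays. The labelled difference was 0.33 with a standard error of 0.50, and it was −0.15 without knockout 1. Of the dimmer Jag1 probe sets, 1421105_at had 1.27, 0.577, 1.27 and 0.952, and 1421106_at had 0.073, 0.674, 0.706 and 0.402, which are below the array median on every array. The arrays stood in the same order in 1421106_at as in the brightest probe set, and in another order in 1421105_at.

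Hes1, the repressor through which Notch holds down Atoh1, varied most among the brightest probe sets of the 10 genes. Its single probe set (1418102_at) had 3.12, 6.55, 13.9 and 4.34. Knockout 1 was at 2.13 times the next array and at 4.47 times heterozygous 1, and the labelled groups overlapped. Of kept probe sets 5.26% spanned more over the 4 arrays, and 8.83% and 9.48% did so after quantile normalization and with centring on the 75th percentile. By label the means were 4.83 ± 2.42 and 9.14 ± 6.79 (SD, n = 2 each), a log2 difference of 0.75 ± 0.60 (SE). This difference rested on knockout 1, and was −0.06 without that array against 1.55 without knockout 2.

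Among the secretory factors, Atoh1, which starts the secretory programme, was highest on the same array as Hes1 on the deposited values. It had 7.70, 8.02, 8.49 and 5.66 (1449822_at), lowest on knockout 2 and highest on knockout 1. The label means were 7.86 ± 0.227 and 7.08 ± 2.00 (SD, n = 2 each), a log2 difference of −0.17 ± 0.50 (SE), which turned to 0.11 without knockout 2. After quantile normalization, Atoh1 was highest on heterozygous 1 (9.44, 6.90, 7.27 and 6.64), where Hes1 was lowest, so that the order of its arrays depended on the scaling.

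Gfi1, a zinc finger repressor of the goblet and Paneth branch that T cells also express, had 1.65, 1.30, 1.13 and 0.979 (1417679_at). Both knockout arrays lay below both heterozygous ones, at 1.06 ± 0.108 against 1.47 ± 0.247 (SD, n = 2 each), a log2 difference of −0.38 ± 0.44 (SE). The groups stayed apart after quantile normalization but overlapped with centring on the 75th percentile (1.96, 1.1, 0.95 and 1.14). Spdef, an ETS factor of goblet and Paneth cell maturation, had 2.83, 4.49, 5.77 and 3.50 (1450220_a_at). Knockout 1 was highest and heterozygous 1 lowest, 2.04-fold apart. Its labelled difference was 0.31 with a standard error of 0.47, and it was −0.02 without knockout 1 and 0.01 without heterozygous 1.

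Neurog3, the factor that commits cells to the enteroendocrine fate, had 1.84, 2.07, 3.33 and 1.75 in its brighter probe set (1432034_at). The other one (1422312_a_at) was below the array median on 3 arrays, with 0.064, 0.133, 1.40 and 0.036. In both, knockout 1 was highest, and the labelled difference of the brighter one, 0.28 with a standard error of 0.45, was −0.13 without that array. Neurod1, which acts after Neurog3, had another order, with 4.64, 1.82, 3.05 and 2.13 in 1426412_at and 2.86, 2.44, 1.82 and 1.74 in 1426413_at. Heterozygous 1 was highest in both. The second of these had both knockout arrays below both heterozygous ones, at 1.78 ± 0.0594 against 2.65 ± 0.297 (SD, n = 2 each), and its labelled difference was −0.50 with a standard error of 0.42. In the first the groups overlapped, with a difference of −0.18 that became 0.42 without heterozygous 1 and 0.05 without knockout 2.

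Over the 14 kept probe sets, the labelled groups did not overlap in 3, those of Notch1 (1418633_at), Gfi1 and Neurod1 (1426413_at), and all 3 were lower on the knockout label. Of all kept probe sets 17.3% did not overlap, 10.7% with the knockout arrays lower and 6.56% with them higher. The single brightest probe set among those 3 was that of Gfi1, so that the count per gene was 1 of 10. After quantile normalization the groups did not overlap in 4 of the 14, 1 higher and 3 lower on the knockout label, beside 22.7% of all kept probe sets (11.7% higher and 11% lower). With centring on the 75th percentile it was 2 higher and 3 lower, beside 21.1% (9.37% and 11.7%). The 3 lower then held Dll4 (1421826_at) in place of Gfi1.

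**Figure D2:**
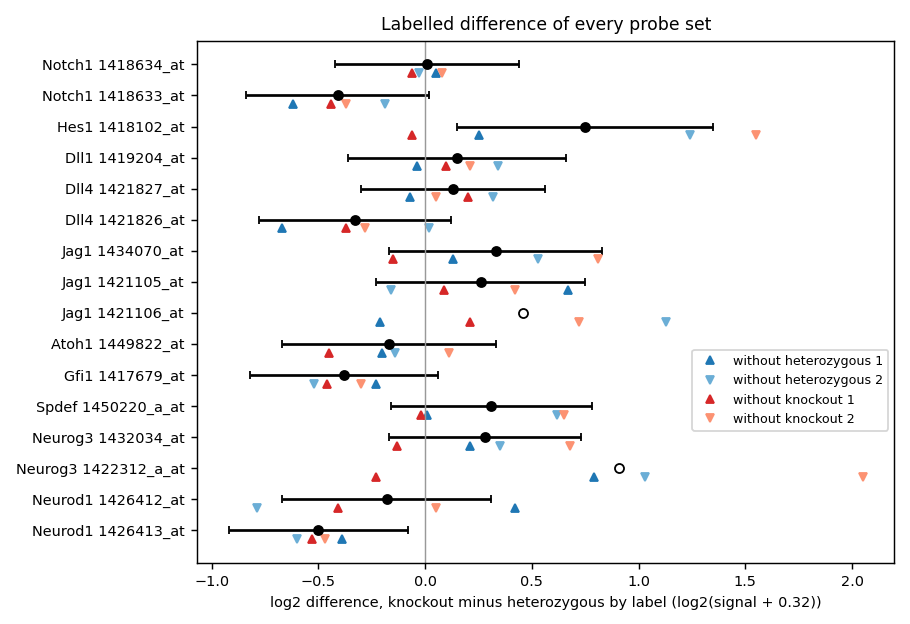
Log2 difference, knockout minus heterozygous by label, of all 16 probe sets. Filled points with bars are limma estimates ± standard error, open points are probe sets under the filter with no test, and triangles are the difference with 1 array left out; for Hes1 these run from −0.06 without knockout 1 to 1.55 without knockout 2.

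By Ap1m2 signal, 6 of the 10 genes were higher on both arrays of low signal (heterozygous 2 and knockout 1) than on both arrays of high signal (heterozygous 1 and knockout 2), and none was lower on both. These 6 were Hes1, Dll1, Jag1, Atoh1, Spdef and Neurog3. The count lies near the background, because 52.7% of all kept probe sets were higher and 11.7% lower on both arrays of low signal, in step with the higher 75th percentile of these arrays. After quantile normalization, an alternative added after the data were seen, the count was 3 higher (Hes1, Spdef and Neurog3) and 2 lower (Notch1 and Dll1), beside 28.4% and 24.9% of all kept probe sets. With each array centred on its 75th percentile, 1 gene was higher, Hes1, and 4 were lower (Notch1, Dll1, Dll4 and Gfi1), beside 27.6% and 28.3%. Hes1 was thus the 1 of the 10 brightest probe sets that was higher on both arrays of low Ap1m2 signal under all 3 scalings. The share of all kept probe sets that were higher under all 3 was not counted, so this does not set Hes1 apart from the background. The dim Jag1 probe set 1421106_at, below the filter, was also higher under all 3.

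In Hes1 the lower of the arrays of low Ap1m2 signal was 1.51 times the higher of those of high signal on the deposited values. The same ratio was 1.29 for Jag1, 1.28 for Spdef, 1.12 for Neurog3, 1.07 for Dll1 and 1.04 for Atoh1. Quantile normalization put Hes1 at 3.55, 5.71, 11.9 and 4.96, Spdef at 3.17, 4.02, 5.03 and 3.92, and Neurog3 at 1.92, 1.99, 3.05 and 1.80. Knockout 1 stood out in each, whereas heterozygous 2 lay only slightly above the arrays of high Ap1m2 signal in Spdef and Neurog3. Jag1 was 4.95, 4.95, 7.47 and 4.98 on that scale, so that what remained was a higher value on knockout 1 alone. With heterozygous 2 left out, knockout 1 was above both arrays of high Ap1m2 signal in 7 of 10 genes on the deposited values and in 4 of 10 after quantile normalization, beside 61.5% and 43.1% of all kept probe sets. With knockout 1 left out, heterozygous 2 was above them in 6 of 10 and 3 of 10, beside 67.6% and 39.7%.

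**Figure D3:**
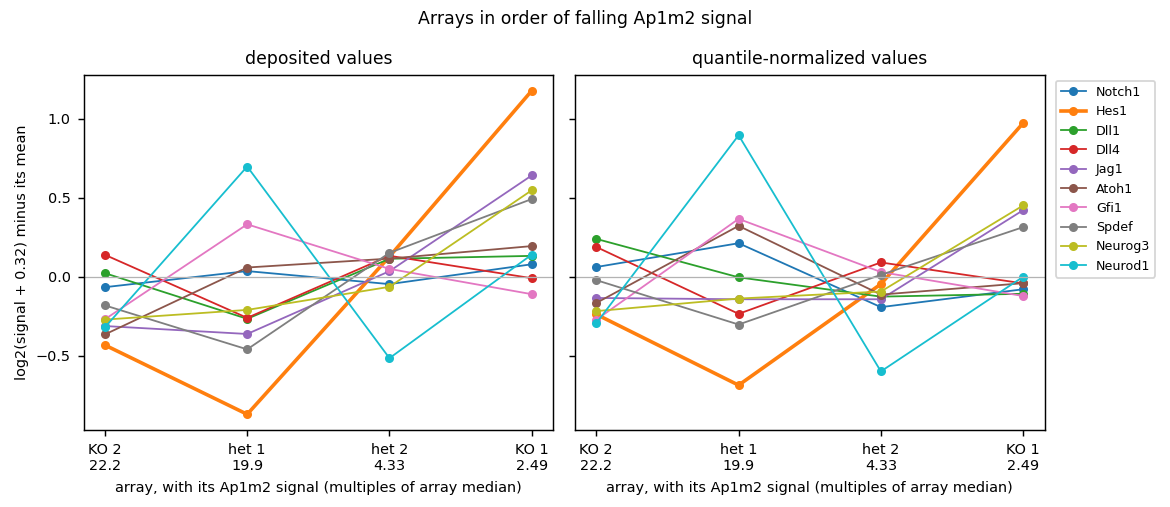
Brightest probe set of each of the 10 genes on the arrays in order of falling Ap1m2 signal (values under the array names, in multiples of the array median), as log2(signal + 0.32) minus its mean over the arrays. Lines join the points of a gene and imply no time course; Hes1 (thick line) is highest on knockout 1 in both panels, while Neurod1 is highest on heterozygous 1.

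The genes whose arrays were most like those of Hes1, Neurod1 and Jag1, the 3 genes with the widest span on the deposited values, were found by the root mean square difference of centred log2 values over 4 arrays, among 11325 other genes. Nearest to Hes1 were Rbm34, an RNA-binding protein (0.043), the histone acetyltransferase gene Kat2a (0.044) and the mitochondrial complex I assembly factor gene Ndufaf4 (0.045). Hes1 was not alone in its pattern, since 256 genes lay within 0.2 of it. Jag1 had 1766 genes within that distance, the nearest being the splicing kinase gene Srpk2 (0.008), the ribosomal protein gene Rps26 (0.011) and BC003965 (0.011). Neurod1 had 28, the nearest being Cd1d1, which presents lipid antigens (0.061), Adamdec1, a metalloprotease gene of gut macrophages (0.070), and 2210039B01Rik (0.091).

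The other Notch pathway genes were followed in a list of 44, of which 40 were on the array under a name of their own and 32 were kept. None passed the test by limma, 16 were higher and 16 lower on the knockout label, and their median log2 difference was 0.00. Among the remaining receptors and ligands, Notch2 had 1.80, 2.33, 4.32 and 1.58, highest on knockout 1 like Hes1, and Jag2 had 1.68, 2.60, 1.78 and 1.81. For receptor cleavage, Adam10, the protease that makes the first cut, had 42.6, 79.4, 58.8 and 40.0, and the gamma-secretase subunit gene Psenen had 65.0, 109, 76.1 and 61.5. Both were highest on heterozygous 2. Another subunit gene, Aph1b, had 2.99, 2.64, 1.24 and 1.73, with a labelled difference of −0.81 and a standard error of 0.43 (limma, unadjusted p = 0.0818), and Psen2, a catalytic subunit gene, had 4.70, 5.69, 8.76 and 5.28.

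Of the trafficking and ubiquitin genes of the pathway, Numb, an inhibitor of the receptor, had 43.9, 63.6, 40.4 and 42.4, and the ligase genes Dtx4, Mib2 and Itch had labelled differences of 0.60, −0.42 and −0.26 with standard errors of 0.50, 0.46 and 0.55. The nuclear partners Maml1 (5.92, 8.84, 8.37 and 7.20) and Snw1 (13.4, 17.1, 19.5 and 14.3) were both lowest on heterozygous 1. Of the other targets, the feedback inhibitor gene Nrarp had 10.1, 10.0, 8.76 and 9.52, and the stem cell gene Olfm4 had 122, 88.6, 106 and 117. Hes6, a relative of Hes1 that counters it, was listed with them but is not taken as a target here, and had 12.4, 20.5, 19.9 and 15.2. None of these 3 was highest on knockout 1, where Hes1 was, and Hes5, Hes7, Hey1 and Hey2 did not pass the filter. By Ap1m2 signal, 17 of the 32 kept pathway genes were higher and 4 lower on both arrays of low signal on the deposited values, so that 53.1% were higher beside 52.7% of all kept probe sets. After quantile normalization 5 were higher and 10 lower, and the 15.6% higher stood beside 28.4%.

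Further factors of secretory fate were listed with 28 genes, of which 25 were on the array and 14 kept. No member passed the test by limma, 8 were higher and 6 lower on the knockout label, and the median log2 difference was 0.04. On both arrays of low Ap1m2 signal, 9 of the 14 were higher and 1 lower on the deposited values (64.3% higher, beside 52.7% of all kept probe sets), and 6 were higher and 2 lower after quantile normalization (42.9% higher, beside 28.4%). The goblet and Paneth part held 5 of those 6, among them Foxa3, a forkhead factor, at 2.49, 4.98, 5.96 and 3.69, and Xbp1, which expands the secretory apparatus, had 115, 156, 157 and 119 but overlapped on the quantile scale. Klf4, a factor of goblet cell differentiation, had 127, 123, 96.5 and 112, lower on both knockout arrays, and Foxa2 had 1.81, 2.77, 3.38 and 3.85, higher on both. Of the factors listed as endocrine, 10 of 13 on the array did not pass the filter. Insm1 had 1.63, 1.65, 2.88 and 0.614, and Rfx3 had 0.935, 2.46, 1.26 and 0.567. Pdx1, on the same list but not placed below Neurog3 here, had 29.3, 51.6, 29.9 and 41.2. The tuft cell factor gene Pou2f3 had 1.51, 0.989, 1.17 and 1.39, and Sox4 had 13.5, 13.9, 20.1 and 12.4.

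**Figure D4:**
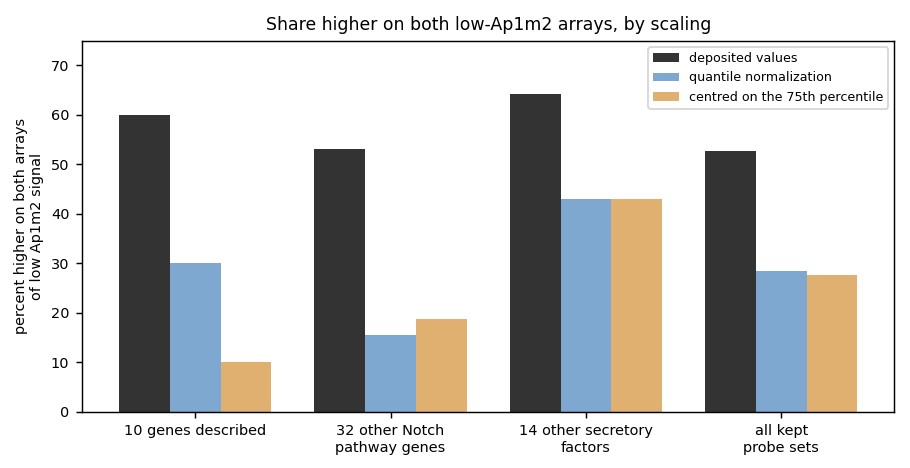
Percent of genes whose signal was higher on both arrays of low Ap1m2 signal than on both arrays of high signal, for the 10 genes described, the other Notch pathway genes, the other secretory factors and all kept probe sets, under 3 scalings. The bar of all kept probe sets falls from 52.7% on the deposited values to 28.4% and 27.6%, and that of the 10 genes from 6 of 10 to 3 and 1 of 10.

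Products of the mature secretory cells were compared with the factors. Goblet cell markers summed to 1970, 2050, 2080 and 1580 over 8 genes, with Zg16 at 631, 498, 556 and 459 and Clca1 at 332, 321, 226 and 253, neither in the order of Spdef. Spink4, named outside the rule for genes, had 120, 244, 341 and 121, with the arrays in the order of Spdef, and Agr2, also outside it, had 55.3, 120, 172 and 54.0, likewise highest on knockout 1. These were the only 2 of the 7 kept goblet markers highest there, with 3 highest on heterozygous 1 and 2 on heterozygous 2. Paneth cell markers summed to 671, 317, 485 and 203 over 4 genes, higher on both arrays numbered 1, with lysozyme, Lyz1, at 512, 248, 381 and 150. Endocrine cell markers were lower on the knockout label in 12 of 14 genes (median log2 difference −0.46, none past the test by limma), and in 7 of the 14 the groups did not overlap, all lower, beside 10.7% of all kept probe sets. Among these, neurotensin, Nts, had 2.51, 2.17, 1.02 and 1.03, and chromogranin B, Chgb, had 83.1, 87.2, 68.2 and 53.9. Neurod1 in its dimmer probe set, 1426413_at, was lower on both knockout arrays as well, whereas Neurog3 was highest on knockout 1. In the brighter Neurod1 probe set, 1426412_at, the labelled groups overlapped (4.64, 1.82, 3.05 and 2.13). The tuft cell gene Avil had 8.19, 4.42, 3.98 and 4.07, and the tuft cell sum was 24.8, 14.1, 11.1 and 17.7 over 5 genes.

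Markers of proliferation and of other cell types also differed between the arrays. Proliferation markers were highest on knockout 1 in 8 of 8 kept genes, as were 7 of the 10 fate genes in their brightest probe set, beside 41.1% of all kept probe sets. After quantile normalization 4 of the 10 were highest there, beside 34.8%. The sum of the proliferation markers was 138, 220, 414 and 142, with Birc5, a mitotic regulator, at 7.01, 15.3, 48.4 and 10.1. T cell markers were lowest on knockout 1 in 7 of 7 kept genes and summed to 319, 69.2, 9.98 and 196 over 8 genes, and Gfi1, which T cells also express, was highest on heterozygous 1 as was this sum, but lowest on knockout 2, where the sum was second highest. Myeloid markers summed to 42.4, 10.8, 7.81 and 20.0 over 6 genes, highest on heterozygous 1 as was Neurod1. The brush border lactase gene Lct, a marker of mature enterocytes, had 312, 82.3, 3.97 and 237, the reverse order of Hes1. The enterocyte list did not share this order as a whole on the deposited values. Of its 9 kept genes 3 were lowest on knockout 1 and 2 were highest there, among them Fabp1 (707, 770, 910 and 582). After quantile normalization the list summed to 4370, 3880, 3260 and 4250 over 9 genes, the reverse order of Hes1. On both arrays of low Ap1m2 signal 5 were then lower and 1 higher, beside 24.9% and 28.4% of all kept probe sets. With centring on the 75th percentile 8 were lower and 0 higher, beside 28.3% and 27.6%. All 9 kept enterocyte markers had a lower mean on the knockout label, with a median log2 difference of −0.17, and 5 of 6 kept stem cell markers a higher one, with a median of 0.35, none of them past the test by limma. The part of these markers in the values of the 10 genes was not tested.

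Markers of other cells that can make Notch ligands or Neurod1 were also followed. Endothelial markers, relevant to Dll4, Jag1 and Notch1, summed to 10.5, 6.49, 6.35 and 7.54 over 9 genes, with the vascular receptor gene Tek at 2.42, 1.14, 1.08 and 0.433 and Esam at 1.42, 1.45, 1.76 and 1.10. Of these 9 genes 5 were kept, and the defining endothelial gene Pecam1, named outside the rule, had 0.238, 0.18, 0.119 and 0.171. Stromal and muscle markers summed to 21.7, 17.6, 25.7 and 22.1 over 10 genes, and neuron and glia markers to 3.24, 4.14, 5.79 and 3.91 over 5. Pancreas markers were at 4.36, 4.22, 2.83 and 18.1 over 5 genes, with the acinar enzyme gene Cpa1 at 0.079, 0.166, 0.089 and 8.88, highest on knockout 2. The islet hormone gene Iapp of the same list, named outside the rule, had 2.77, 1.63, 0.587 and 1.77, highest on heterozygous 1 as was Neurod1. Another islet hormone gene, Ins2, also outside the rule and below the filter, had 0.421, 0.313, 0.787 and 0.485, highest on knockout 1. B and plasma cell markers summed to 230, 91.3, 104 and 71.7 over 5 genes. This sum joined unlike orders, since Jchain had 205, 34.9, 34.1 and 39.6 and Sdc1 had 21.1, 52.2, 66.9 and 25.7. The part of all these markers in the values above was not tested.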

How the data were processed

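Each of 4 one-colour arrays was hybridised with biotin-labelled total RNA. The deposited table held 1 linear intensity value per probe set and array, made by the authors with MAS5 per the submitters' processing notes (version not given in the sources used here). Array medians lay near 1, as seen in the values, and MAS5 signals of dim probe sets carry large errors. Gene names came from the platform annotation (1 gene for 34945, several for 932, none for 9160), checked against RefSeq GRCm38.p6 by Entrez identifier (34741 found, 0 symbols changed). Values were taken as log2(value + 0.32), the pseudocount being the 25th percentile. Kept were 22519 probe sets whose mean reached the median of means, 0.983. The test between labels was that of limma 3.58.1, run in R 4.3.3 (intensity trend, Benjamini-Hochberg, 0.05), tested on simulated data, and other steps used Python 3.11.15. An exact permutation test of 2 against 2 arrays was not used. The number of arrays limits the precision.

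Every probe set of the 10 genes was named. Genes of other lists were named from the 2 of smallest p and the 2 of highest mean in each. Pecam1, Spink4, Agr2, Iapp, Ins2 and the dim Notch targets were outside this rule, chosen after their values were seen. The 3 genes nearest to each of the 3 members of widest span were added. Members and lists were chosen with earlier results of these data known. Alternatives were other pseudocounts, filters and scalings, no trend, a replicate block, leaving out each array, a threshold of 0.10 and averaging all probe sets of a gene. The scalings of the Ap1m2 order and a block of crossed pairs were added after the data were seen.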

Additional observations from a re-analysis of the deposited data

How the results depend on the processing

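The count of probe sets past the adjusted threshold by limma was 0 under 11 of 14 alternatives. It was 1 among the brightest 25% of probe sets, which was Pck1, and with 1 array left out it ranged from 0 to 240, with 24 without knockout 1 and 240 without knockout 2. A lone array is then assumed to vary like the pair of the other label, from which alone the spread comes, so these counts are no evidence of a difference between the labels. None of these probe sets belonged to the 10 genes. The replicate numbers matched the arrays by sex, but the deviations of same-numbered arrays had a correlation of −0.511 over the kept probe sets. The replicate block gave 0 calls and the crossed pairs 0. The median log2 difference of the 10 genes, 0.14, ranged from −0.10 (without knockout 1) to 0.33 (without heterozygous 2) and stayed between 0.03 and 0.24 under the other alternatives. The number of the 10 genes higher on both arrays of low Ap1m2 signal went from 6 to 3 with quantile normalization and 1 with centring on the 75th percentile. Without knockout 1 it was 6, and 3 with quantile normalization, and without heterozygous 2 it was 7 and 4. Groups did not overlap by label at 3893 kept probe sets, and at 5114 after quantile normalization.

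Of 102 values of single probe sets under alternatives that keep all arrays, 2 changed sign, both of Notch1 1418634_at (−0.02 with quantile normalization and −0.01 with centring on the 75th percentile). The filters and the replicate block leave the difference of a probe set as it is. Values under these settings were among the 102 and could not change sign. With 1 array left out, 15 of 64 changed sign. The differences then ranged from −0.06 to 0.08 for Notch1 1418634_at, −0.06 to 1.55 for Hes1, −0.04 to 0.34 for Dll1, −0.07 to 0.32 for Dll4 1421827_at, −0.67 to 0.02 for Dll4 1421826_at, −0.15 to 0.81 for Jag1 1434070_at, −0.16 to 0.67 for Jag1 1421105_at and −0.21 to 1.13 for Jag1 1421106_at. They ranged from −0.45 to 0.11 for Atoh1, −0.02 to 0.65 for Spdef, −0.13 to 0.68 for Neurog3 1432034_at, −0.23 to 2.05 for Neurog3 1422312_a_at and −0.79 to 0.42 for Neurod1 1426412_at. Gfi1, Notch1 1418633_at and Neurod1 1426413_at did not change sign, as separated groups cannot when 1 array is removed. The cause of these shifts was not tested. Signals below the array median, as in 1421106_at and 1422312_a_at, allow no reading of a fold.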
